A study of Rattus norvegicus with 6 samples.

Results

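Heat shock and unfolded protein response genes were compared between rat sciatic nerve that had received electrical stimulation (ES) and nerve that had not, on day 4 after injury. The set was chosen by gene name, with earlier results of these data known. Of 39 named genes, 38 had a row among the 33713 genes of the deposited tables, and Hspa1a had none under that name. They were split by role into 18 cytosolic and mitochondrial chaperones and their regulators, 14 genes of endoplasmic reticulum (ER) stress and 6 genes linked to the transcription factor ATF4. All 38 passed the filter on low counts.

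The ES group held 3 samples of sciatic nerve from Sprague-Dawley rats, all female and 8 weeks old, stimulated for 1 h at once after the nerve had retracted to a gap of about 6 mm. The control group was 3 samples of the same sex, age and strain with the same gap and no stimulation. In both groups each nerve end was then fixed by suture over 2 mm inside a silicone tube of 10 mm. The labels do not say that replicates are different animals, so every p-value reflects sample-to-sample spread that could be technical. ES libraries held 14962319 to 17119144 counts and control libraries 15220907 to 16232192 counts.

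Cells meet damaged or unfolded protein with linked programmes. In the cytosol, heat shock factor 1 (HSF1) binds heat shock elements and switches on chaperones of the HSP70, HSP90, HSP40 and small heat shock protein families. In the ER, the sensors ATF6, IRE1 (gene Ern1) and PERK (gene Eif2ak3) switch on ER chaperones and protein disposal. PERK also slows translation, which favours translation of ATF4 and its targets, among them the transcription factor CHOP (gene Ddit3). In injured nerve, Schwann cells and infiltrating macrophages make and clear large amounts of secreted and membrane protein.

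The promoters of several members carried the letters these programmes are known to use, and the sequences below show where. RefSeq promoters (build GRCr8) were matched by symbol for 31 of the 38 members, and not for Atf6, Dnajb4, Ern1, Hsf1, Hsp90aa1, Hspa1b and Pdia6. The 250 bases before each start were searched on both strands, so an element that crosses the start would be missed. The heat shock element GAANNTTCNNGAA was present for 4 of 14 matched cytosolic and mitochondrial members (Hspa8, Hsph1, Hspd1 and Hspe1) and 0 of 11 ER members, against 0.663% of 33469 RefSeq promoters. The ER stress response element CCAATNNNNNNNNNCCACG was present for 6 of 11 matched ER members (Hspa5, Hsp90b1, Calr, Canx, Dnajc3 and Xbp1) and 0 of the 14, against 0.0657% of all promoters. The element holds the CCAAT box, which 34.0% of all promoters carry and all 11 of these ER promoters do.

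The following stretches end at the base before the start, run 5′ to 3′ in the direction of the gene, and show the heat shock element in capitals. Hspd1 and Hspe1 lie head to head on chromosome 9, and the 2 overlapping matches of both genes fall on the same bases, chr9:64084262-64084279. They are shown from the Hspe1 side. Dnajb1 is shown because it had the lowest p of all members, and its stretch holds no full match to these letters. Its last bases match the element as far as the window reaches. The bases after the start were not searched, so whether the element is complete there was not tested.
Hspa8, chr8:50080264-50080513, plus strand: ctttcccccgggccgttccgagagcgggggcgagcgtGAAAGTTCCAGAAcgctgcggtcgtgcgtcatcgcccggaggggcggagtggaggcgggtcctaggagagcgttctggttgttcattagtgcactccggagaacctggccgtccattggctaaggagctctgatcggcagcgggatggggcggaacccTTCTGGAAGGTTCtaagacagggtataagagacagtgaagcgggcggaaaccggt
Hsph1, chr12:10427268-10427367, plus strand: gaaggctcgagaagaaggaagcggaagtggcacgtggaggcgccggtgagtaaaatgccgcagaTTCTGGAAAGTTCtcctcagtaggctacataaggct
Hspe1, chr9:64084227-64084326, plus strand: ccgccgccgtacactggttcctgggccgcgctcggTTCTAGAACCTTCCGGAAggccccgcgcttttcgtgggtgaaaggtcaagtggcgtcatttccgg
Dnajb1, chr19:41431142-41431241, minus strand: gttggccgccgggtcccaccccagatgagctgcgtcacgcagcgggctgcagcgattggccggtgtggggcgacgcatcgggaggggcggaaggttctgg

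For the ER genes the capitals mark the ER stress response element, which occurs in either direction and in Hsp90b1 in both.
Hspa5, chr3:38452916-38453015, plus strand: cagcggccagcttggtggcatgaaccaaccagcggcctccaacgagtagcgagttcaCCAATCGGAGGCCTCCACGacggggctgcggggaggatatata
Xbp1, chr14:84604523-84604622, plus strand: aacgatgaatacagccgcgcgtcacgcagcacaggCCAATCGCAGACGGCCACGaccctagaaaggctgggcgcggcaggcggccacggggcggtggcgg
Hsp90b1, chr7:23012294-23012543, minus strand: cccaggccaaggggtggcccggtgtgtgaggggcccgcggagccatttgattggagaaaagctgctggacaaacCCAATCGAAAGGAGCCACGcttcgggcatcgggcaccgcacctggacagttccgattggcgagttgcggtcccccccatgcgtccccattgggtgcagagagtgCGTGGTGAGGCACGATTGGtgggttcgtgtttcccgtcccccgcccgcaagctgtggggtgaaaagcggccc
Dnajc3, chr15:102432517-102432666, plus strand: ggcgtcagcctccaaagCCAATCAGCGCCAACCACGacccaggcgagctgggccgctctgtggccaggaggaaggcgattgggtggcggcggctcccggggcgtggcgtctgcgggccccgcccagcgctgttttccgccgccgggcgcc

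The core of the composite element bound by ATF4, written TGATGNAA, was present for 2 of 6 ATF4-linked promoters (Chac1 and Trib3), for Herpud1 among the ER members and for Hspa9, against 3.40% of all promoters. The letters of the unfolded protein response element, TGACGTGG, were present for Bag3 alone among the members, against 0.520% of all promoters. Chac1 and Trib3 are shown with the ATF4 core in capitals, and Ddit3, a target of ATF4 with no match in this window, without.
Chac1, chr3:126795881-126796130, plus strand: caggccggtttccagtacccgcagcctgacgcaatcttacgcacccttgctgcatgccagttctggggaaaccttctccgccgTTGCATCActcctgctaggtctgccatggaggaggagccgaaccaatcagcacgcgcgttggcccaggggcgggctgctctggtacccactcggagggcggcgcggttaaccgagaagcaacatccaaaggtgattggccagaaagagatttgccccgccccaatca
Trib3, chr3:161275534-161275633, minus strand: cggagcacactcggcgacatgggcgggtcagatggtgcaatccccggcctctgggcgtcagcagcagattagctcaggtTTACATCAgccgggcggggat
Ddit3, chr7:65001595-65001694, plus strand: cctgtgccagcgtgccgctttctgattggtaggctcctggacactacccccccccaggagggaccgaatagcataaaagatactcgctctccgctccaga

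Mean levels of the members ranged from 2.28 to 657 FPKM in ES and from 1.81 to 581 FPKM in control. Levels between genes are given as FPKM, which divides by gene length. The 5 most abundant by mean FPKM were Calr (657 in ES, 581 in control), Hsp90ab1 (626 in ES, 543 in control), Hspa5 (535 in ES, 457 in control), Hspa8 (405 in ES, 334 in control) and Hsp90b1 (380 in ES, 324 in control). These are the lectin chaperone calreticulin, the constitutive cytosolic HSP90, the ER HSP70 known as BiP, the constitutive cytosolic HSC70 and the ER HSP90 known as GRP94. Ern1 at 4.26 and 4.38, Chac1 at 3.76 and 2.95, Trib3 at 3.01 and 2.39 and Hspa1b at 2.28 and 1.81 FPKM in ES and control were the lowest. Together the 38 genes held 10171, 11537 and 10421 CPM (read counts relative to library size, scaled by the TMM factor) in the ES libraries, against 9203.3, 9588.4 and 9602.7 CPM in the control libraries. The 3 ES sums lay above the 3 control sums.

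**Figure D1:**
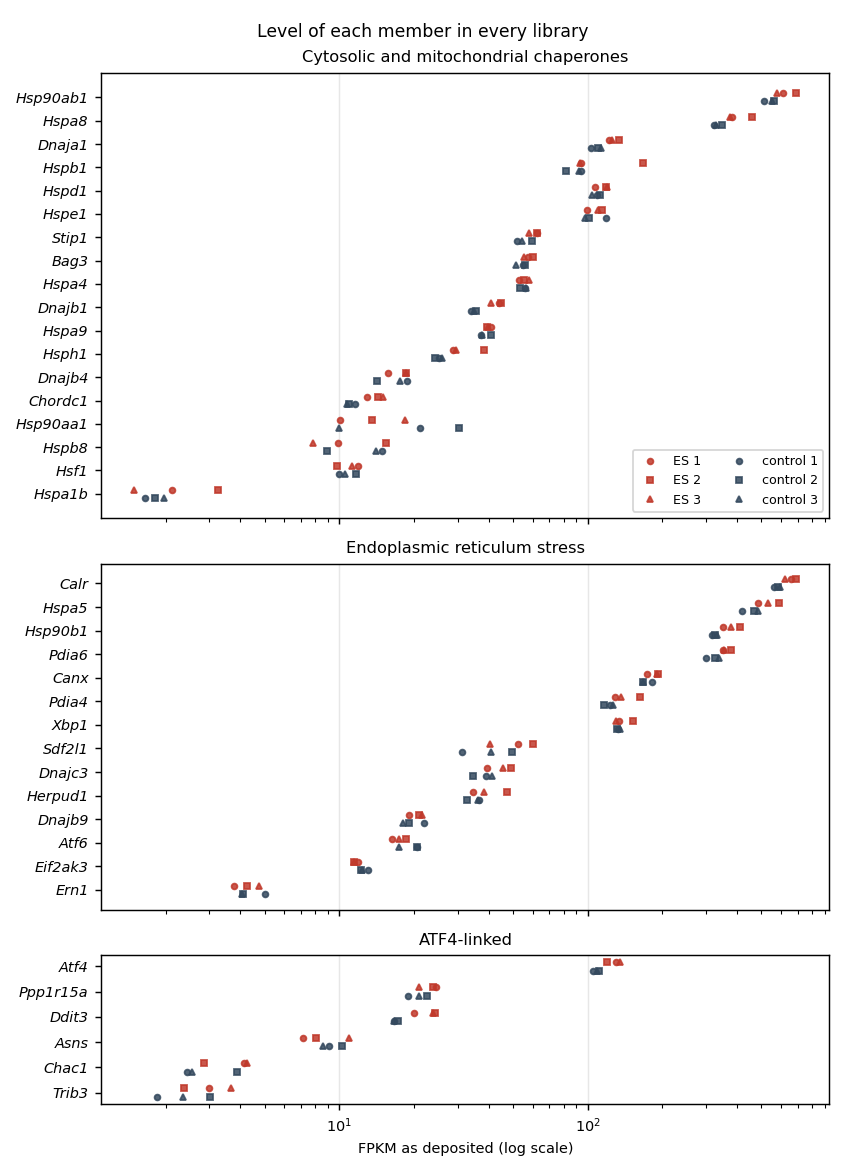
FPKM of each member on a log axis, by class, with 1 point per library (ES red, control dark blue; circle, square and triangle are replicates 1, 2 and 3). Calr, Hsp90ab1 and Hspa5 are the most abundant and Hspa1b the least, and Hsp90aa1 shows the widest spread among control libraries.

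Inducible and constitutive forms differed widely in level. Hspa1b, the HSP70 gene that heat induces, stood at 0.558%, 0.706% and 0.399% of Hspa8 by FPKM in ES 1, 2 and 3, against 0.509%, 0.519% and 0.599% in control 1, 2 and 3. Hsp90aa1, the inducible HSP90, stood at 1.66%, 1.97% and 3.16% of Hsp90ab1 in ES and at 4.12%, 5.35% and 1.80% in control. Neither ratio separated the groups. Hspa1b had 56 to 133 counts in ES libraries and 66 to 76 in control libraries. It lies inside the spans of other genes of the table (RT1-CE4, RT1-CE7 and RT1-CE1 on its strand), and is uncertain to that extent. A row described as HSP70 1A, LOC108348108, held 0 to 3 counts in ES libraries and 0 to 4 in control libraries.

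Across all 3 classes, most members were higher in ES, by at most 1.35-fold, and none passed the test over all genes. edgeR's quasi-likelihood test called 0 of 38 members at an adjusted p under 0.05, where 25 of 14828 genes (0.169%) were called, 5 higher (0.0337%) and 20 lower (0.135%). DESeq2 called 1 member higher, Dnajb1, and 0 lower, where it called 0.651% of 15208 genes higher and 1.37% lower. At an unadjusted edgeR p under 0.05, 13 of 38 members were higher and 0 lower, while of all genes tested 4.01% were higher and 5.94% lower. The median log2 fold change of the members was 0.17, with 31 of 38 above 0, against 0.0025 and 50.7% above 0 over all genes. In 12 members every ES library lay above every control library, which held for 7.54% of all genes, and in 1 member, Eif2ak3, every ES library lay below, which held for 8.23%.

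**Figure D2:**
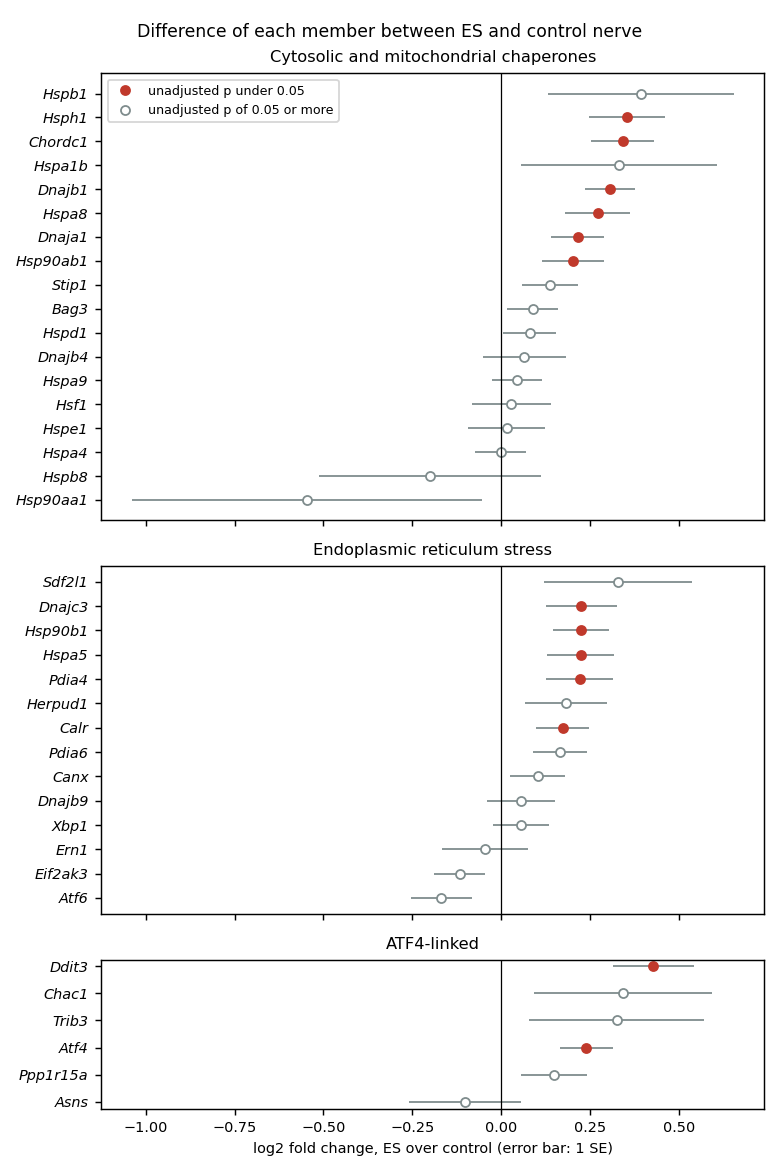
log2 fold change of ES over control for each member by class, with bars of 1 standard error, from edgeR. Filled points have an unadjusted p under 0.05; all 13 lie right of 0, and none has an adjusted p under 0.05.

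These counts leaned on single libraries. ES 2 was the highest library for 20 of 38 members, where 15.9% of all genes were highest there, and control 1 was the lowest for 16, where 22.9% of all genes were lowest there. Without ES 2, 5 members had an unadjusted p under 0.05 (Dnajb1, Chordc1, Hsph1, Ddit3 and Atf4), all higher, against 3.35% of all genes. Without control 1 the number was 8, against 3.16%. ES 2 also held the highest sums of blood cell markers: the 9 neutrophil markers summed to 24.4, 178 and 19.1 CPM in ES 1, 2 and 3, against 19.2 to 25.0 CPM in control, and the 6 matched of 7 erythrocyte markers to 362, 3784.1 and 260.0 CPM in ES, against 279 to 606 CPM in control. Of the neutrophil sum in ES 2, S100a8 gave 45.1 CPM and S100a9 91.2 CPM, and without them the other 7 markers summed to 17.6, 41.9 and 14.97 CPM in ES, against 23.4, 17.9 and 20.0 CPM in control. Mpo, in the same list, had 0.0593, 0.719 and 0.854 CPM in ES, against 10.8, 5.90 and 7.19 CPM in control (log2 fold change −3.87, edgeR adjusted p = 0.0913). No marker of either list was at 0 in all libraries. Whether these cells contributed to the members' levels in ES 2 was not tested.

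Markers of other cell types differed between the groups too. In bulk tissue, fewer cells of a type and less RNA per cell cannot be told apart. Macrophage and monocyte markers (9 of 10 matched, all 9 with a log2 fold change above 0) summed to 1038 to 1336 CPM in ES and 854 to 964 CPM in control. Plasma cells are rich in ER chaperones, and their 7 markers summed to 77.0 to 84.8 CPM in ES and 67.9 to 73.0 CPM in control. Sdc1 made up 68.1 to 74.6 CPM of this in ES and 60.3 to 62.7 CPM in control. Without Sdc1 the other 6 summed to 10.6, 10.2 and 8.93 CPM in ES, against 12.3, 8.19 and 7.64 CPM in control, and overlapped. Adipocyte markers (10 of 10, all with a log2 fold change below 0) summed to 195 to 617 CPM in ES and 1096.1 to 1672.1 CPM in control. Endothelial markers (6 of 7 matched) summed to 463 to 505 CPM in ES and 611 to 690 CPM in control. Smooth muscle and pericyte markers (7 of 7 matched) summed to 491 to 532 and 672 to 811 CPM. All 6 and all 7 had a log2 fold change below 0. Fibroblast and perineurial markers (8 of 8 matched) summed to 19577 to 21855 and 22284 to 29596 CPM, with 6 below 0 and 2 above. Col1a1 (log2 fold change −0.31) and Col3a1 (−0.57) dominated this sum. Fbn1 (−0.65), Dpp4 (−0.50) and Lum (−0.35) were also lower, while Dcn (−0.01), Pdgfra (0.06) and Slc2a1 (0.08) differed little. Skeletal muscle markers (7 of 9) were low, at 7.41 to 10.7 CPM in ES and 11.8 to 16.8 CPM in control.

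Some lists overlapped between the groups. The Schwann cell and myelin markers, all 9 of which were matched, summed to 11111 to 11921 CPM in ES and 8649.4 to 11158 CPM in control, so the labelled tissue showed its defining markers. Lymphocyte markers (9 of 9, with the row taken for Cd79a at 0 throughout) summed to 69.8 to 108 CPM in ES and 93.6 to 122 CPM in control. Immediate early genes, which respond to tissue handling, summed to 1974.6 to 2120.4 CPM in ES and 1813.5 to 2085.8 CPM in control over 13 genes. Jun (829 to 945 CPM in ES, 740 to 927 CPM in control) and Atf3 (613 to 647 and 527 to 644 CPM) dominated this sum. Of the 13 genes, 8 had a log2 fold change above 0 and 5 below. The 13 mitochondrially encoded transcripts summed to 43665 to 45737 CPM in ES and 41643 to 52883 CPM in control. Each of these 13 transcripts had a log2 fold change below 0, with a median of −0.12. Whether any of these contributed to the members' levels was not tested.

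Of the 18 cytosolic and mitochondrial members, 6 were higher (33.3%) and 0 lower by an unadjusted edgeR p under 0.05. Of all genes, 4.01% were higher and 5.94% lower at that level. The class had a median of 0.11 on the log2 scale, with 15 above 0. Without the mitochondrial Hspa9, Hspd1 and Hspe1, 6 of 15 members were higher (40%) at that level, with a median of 0.20. The median of the 3 mitochondrial genes was 0.04. Among the cytosolic HSP70 system, Dnajb1, Dnaja1, Hsph1 and Hspa8 had an unadjusted edgeR p under 0.05, all higher in ES, and none passed the adjusted threshold. Dnajb1, a J-domain protein that hands clients to HSP70, had 98.7, 100.3 and 91.3 CPM in ES 1, 2 and 3, against 76.2, 79.8 and 78.8 CPM in control 1, 2 and 3. Every ES library lay above every control library. Its log2 fold change was 0.31 ± 0.07 (SE), a 1.24-fold difference, with an unadjusted p of 0.00144 and an adjusted p of 0.15 by edgeR's quasi-likelihood test. DESeq2 gave an adjusted p of 0.0421. Across all alternatives Dnajb1 kept its direction, with adjusted p-values from 0.0421 to 0.403. Dnajb1 (ENSRNOG00000021824) spans 24747178 to 24750919 on chromosome 19 in the deposited tables.

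Dnaja1, another J-domain partner, had 196, 215 and 202 CPM in ES, against 167, 177 and 184 CPM in control. Hsph1, an HSP110 that releases nucleotide from HSP70, had 99.4, 132 and 102 CPM in ES, against 87.2, 83.7 and 90.03 CPM in control. Hspa8 had 737, 891 and 727 CPM in ES, against 630, 678 and 643 CPM in control. None of these 3 genes overlapped between the groups, and in each ES 2 was the highest library. Log2 fold changes were 0.22 ± 0.07 for Dnaja1, 0.35 ± 0.11 for Hsph1 and 0.27 ± 0.09 for Hspa8 (SE), with edgeR adjusted p-values of 0.334, 0.266 and 0.322. Without ES 2, Hsph1 had a log2 fold change of 0.22 and Hspa8 one of 0.18. The tables also hold rows described as similar to heat shock protein 8. Of these LOC680121 had 117, 140 and 117 CPM in ES, against 102.5, 101.2 and 117 CPM in control, and reads could be split between it and Hspa8.

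The rest of this system showed no such separation. Hspa4, another HSP110, averaged 251 CPM in both groups, with a log2 fold change of −0.0015 ± 0.07 (SE). Dnajb4, a J-domain protein, had one of 0.07 ± 0.12, and Bag3, the co-chaperone that routes clients to autophagy, one of 0.09 ± 0.07. Hspa1b had 5.22, 7.97 and 3.68 CPM in ES, against 4.07, 4.46 and 4.88 CPM in control, so that ES held both the highest and the lowest library.

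In the HSP90 machinery, Hsp90ab1 and Chordc1 were higher in ES, while Hsp90aa1 varied mainly within the groups. Hsp90ab1 had 1626.5, 1835.0 and 1547.3 CPM in ES, against 1365.8, 1508.3 and 1479.8 CPM in control (log2 fold change 0.20 ± 0.09, SE; edgeR adjusted p = 0.472). It did not keep an unadjusted p under 0.05 with the replicate block, or without ES 1, ES 2, control 1 or control 3. Chordc1, an HSP90 co-chaperone with zinc-binding CHORD domains, had 41.5, 45.9 and 48.3 CPM in ES, against 37.2, 35.2 and 34.6 CPM in control. Its log2 fold change was 0.34 ± 0.09 (SE), with an unadjusted p of 0.00308 and an adjusted p of 0.198 from edgeR. It kept an unadjusted p of at most 0.0172 in every alternative. Stip1, which links HSP70 to HSP90, had a log2 fold change of 0.14 ± 0.08 (SE), and its groups overlapped.

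Hsp90aa1 had 27.9, 37.5 and 50.7 CPM in ES, against 58.3, 83.6 and 27.6 CPM in control. Control 2 was the highest of the 6 libraries and control 3 the lowest. The mean was 38.7 ± 11.4 CPM in ES and 56.5 ± 28.0 CPM in control (SD), and the log2 fold change of −0.55 ± 0.49 (SE) was not separated from that spread (edgeR adjusted p = 0.783). It was the lowest log2 fold change of all members. Without control 3 it was −0.88, with an unadjusted edgeR p of 0.0341. The rows LOC680491 and LOC103692716, which the tables describe as HSP90-alpha copies, held 8.24 to 11.4 and 3.41 to 3.81 CPM in ES and 6.96 to 11.4 and 2.16 to 3.93 CPM in control, with overlap in both.

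**Figure D3:**
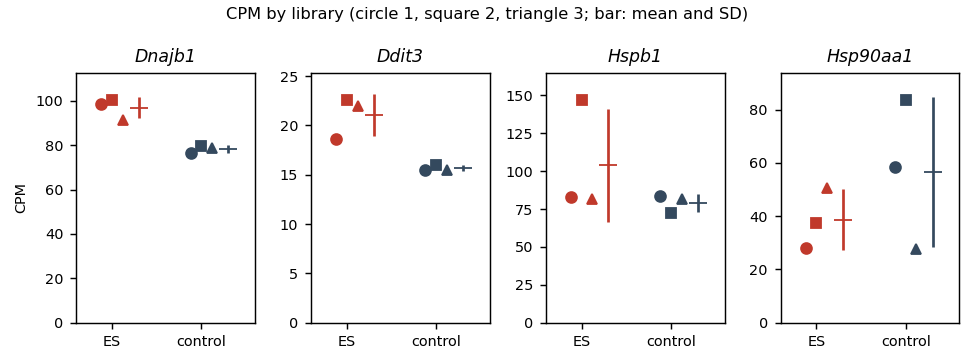
CPM of Dnajb1, Ddit3, Hspb1 and Hsp90aa1 in each library (ES left, control right; circle, square and triangle are replicates 1, 2 and 3; bars are the mean and SD of 3). Dnajb1 and Ddit3 separate the groups, Hspb1 is high in ES 2 alone, and Hsp90aa1 spans 27.6 to 83.6 CPM within control.

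The small heat shock proteins, which hold unfolded protein in a soluble form, followed single libraries. Hspb1, the form known as HSP27 or HSP25, had 83.2, 147 and 81.6 CPM in ES, against 83.3, 72.3 and 81.6 CPM in control. Only ES 2 stood apart, and ES 1 and ES 3 lay within the control range. Its log2 fold change of 0.39 ± 0.26 (SE) was the largest of its class (edgeR adjusted p = 0.697) and was 0.06 without ES 2. Hspb8, the partner of Bag3, had 17.5, 27.3 and 13.9 CPM in ES, against 26.6, 15.8 and 25.2 CPM in control. Its ES libraries enclosed the control range on both sides.

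Mitochondrial chaperones and the master regulator differed little. Hspd1 (HSP60) averaged 256 ± 15.8 CPM in ES and 242 ± 8.05 CPM in control, Hspe1 (HSP10) 28.8 ± 2.05 and 28.4 ± 2.998 CPM, and Hspa9 (mortalin) 113 ± 2.11 and 110 ± 5.51 CPM (SD, n = 3 each). Their log2 fold changes were 0.02 to 0.08. Hsf1 had 28.9, 23.7 and 27.2 CPM in ES, against 24.2, 28.3 and 25.7 CPM in control (log2 fold change 0.03 ± 0.11, SE), and its groups overlapped fully. Hsf1 acts through activation of its protein, which transcript levels do not show. Hspa8 and Hsph1 carry the heat shock element printed above and had log2 fold changes of 0.27 and 0.35, while Hspd1 and Hspe1, which share one, had 0.08 and 0.02.

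Of the 14 ER genes, 5 had an unadjusted edgeR p under 0.05, all higher (Hsp90b1, Hspa5, Pdia4, Calr and Dnajc3), where 4.01% of all genes were higher at that level. Log2 fold changes of the class had their median at 0.17, and 11 of 14 were above 0, against 50.7% of all genes. Without ES 2 the median was 0.10, and 0 of the 14 kept an unadjusted p under 0.05. Of all genes, 3.35% were higher at that level in this fit, so a count of 0 among 14 genes is close to that share.

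The most abundant ER chaperones differed by 1.13-fold to 1.17-fold. Hsp90b1 had 1124.3, 1310.5 and 1208.9 CPM in ES, against 1016.0, 1038.8 and 1062.9 CPM in control (log2 fold change 0.22 ± 0.08, SE; edgeR adjusted p = 0.353). Hspa5 had 1244.3, 1514.0 and 1360.9 CPM in ES, against 1072.3, 1204.5 and 1249.1 CPM in control (0.22 ± 0.09; edgeR adjusted p = 0.464). ES 1 lay just below control 3 for Hspa5, whereas Hsp90b1 did not overlap. Calr, which retains glycoproteins until they fold, had 1226.8, 1293.0 and 1164.5 CPM in ES, against 1054.9, 1093.4 and 1119.7 CPM in control (0.17 ± 0.07; edgeR adjusted p = 0.477), without overlap. Its membrane-bound relative Canx had a log2 fold change of 0.10 ± 0.08 with overlap.

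Pdia4 and Pdia6 are disulfide isomerases, and Pdia4 alone of them had an unadjusted edgeR p under 0.05. Pdia4 had 302, 380 and 317 CPM in ES, against 288, 271 and 297 CPM in control (log2 fold change 0.22 ± 0.09, SE; edgeR adjusted p = 0.467). Pdia6 had 619, 672 and 626 CPM in ES, against 532, 576 and 601 CPM in control (0.17 ± 0.08; edgeR adjusted p = 0.513). Neither overlapped between the groups. Dnajc3, an ER J-domain protein also known as an inhibitor of eIF2-alpha kinases, had 68.5, 85.7 and 79.5 CPM in ES, against 67.7, 60.3 and 71.8 CPM in control, and control 3 lay above ES 1 (0.23 ± 0.10; edgeR adjusted p = 0.49).

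Other ER members overlapped between the groups. Sdf2l1, a partner of BiP, had 56.1, 64.3 and 43.1 CPM in ES, against 33.4, 53.1 and 43.7 CPM in control, and its log2 fold change of 0.33 ± 0.21 (SE) was the largest of the class. Herpud1, a part of ER-associated degradation, had one of 0.18 ± 0.11, with ES 2 at 87.6 CPM and the other libraries at 60.1 to 70.2 CPM. Dnajb9, an IRE1-dependent J-domain protein, had one of 0.06 ± 0.10.

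The sensors Atf6, Eif2ak3 and Ern1 had log2 fold changes below 0 with no unadjusted p under 0.05. Atf6, whose cleaved form induces ER chaperones, had 76.9, 86.8 and 81.2 CPM in ES, against 96.3, 96.6 and 82.2 CPM in control (log2 fold change −0.17 ± 0.09, SE; edgeR adjusted p = 0.553). ES 2 lay above control 3. Eif2ak3 had 53.5, 51.6 and 51.5 CPM in ES, against 58.9, 55.3 and 55.7 CPM in control (−0.12 ± 0.07; edgeR adjusted p = 0.64), and all 3 ES libraries lay below control. Ern1 had 26.1, 29.5 and 32.8 CPM in ES, against 34.8, 28.4 and 28.1 CPM in control (−0.05 ± 0.12). Xbp1, the transcript that IRE1 splices, had 149, 170 and 145 CPM in ES, against 148, 147 and 152 CPM in control (0.06 ± 0.08). Counts per gene do not separate its spliced and unspliced forms.

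Fold changes of ER genes with and without the ER stress response element overlapped. The 6 genes that hold it had log2 fold changes of 0.06 (Xbp1) to 0.23 (Dnajc3), and the 5 matched genes that do not had −0.12 (Eif2ak3) to 0.33 (Sdf2l1).

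Atf4 and its target Ddit3 were the ATF4-linked genes that separated the groups. They were the 2 of 6 with an unadjusted edgeR p under 0.05, both higher, against 4.01% of all genes, and the 6 genes had a median of 0.28 on the log2 scale, with 5 above 0. Atf4 had 253, 232 and 262 CPM in ES, against 205, 216 and 212 CPM in control (log2 fold change 0.24 ± 0.07, SE), with an unadjusted p of 0.00871 and an adjusted p of 0.275 from edgeR. Ddit3 had 18.6, 22.6 and 22.0 CPM in ES, against 15.5, 15.99 and 15.5 CPM in control. Its log2 fold change of 0.43 ± 0.11 (SE), or 1.35-fold, was the highest of all members, with an unadjusted p of 0.00332 and an adjusted p of 0.201 from edgeR. In both genes every ES library lay above every control library, and both kept an unadjusted p under 0.05 in every alternative. Ddit3 (ENSRNOG00000006789, chromosome 7, 70580198 to 70585084) shares 72 bases with Mars on the opposite strand, and the counting tool's use of strand is not given in the sources used here, so its reads are uncertain to that extent. Mars, listed as Mars1 below, was itself higher in ES.

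The other targets overlapped between the groups. Ppp1r15a, which returns eIF2-alpha to its active form, had a log2 fold change of 0.15 ± 0.09 (SE). Chac1, a glutathione-degrading enzyme, had 6.52, 4.49 and 6.70 CPM in ES, against 3.82, 6.09 and 4.05 CPM in control (0.34 ± 0.25). Trib3, a pseudokinase induced by CHOP, had 5.81, 4.61 and 7.09 CPM in ES, against 3.57, 5.83 and 4.56 CPM in control (0.33 ± 0.25). In both, control 2 lay above ES 2. Asns, asparagine synthetase, had 15.9, 18.0 and 24.4 CPM in ES, against 20.4, 22.9 and 19.2 CPM in control (−0.10 ± 0.16), with ES 3 above and ES 1 and ES 2 below the control range.

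Libraries ranked differently in the 3 classes. The median over cytosolic and mitochondrial members of log2 CPM relative to the control mean was 0.11, 0.22 and 0.06 in ES 1, 2 and 3, against 0.0031, 0.02 and −0.00365 in control 1, 2 and 3. Over ER members it was 0.02, 0.24 and 0.12 in ES, against 0.02, −0.03 and 0.03 in control, and ES 1 lay within the control range. For ATF4-linked members it was 0.25, 0.06 and 0.40 in ES, against −0.09, 0.12 and −0.02 in control. ES 2 was thus the highest ES library for the first 2 classes and the lowest for the last, where ES 3 was highest for 4 of 6 genes and control 1 was lowest for 5 of 6.

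**Figure D4:**
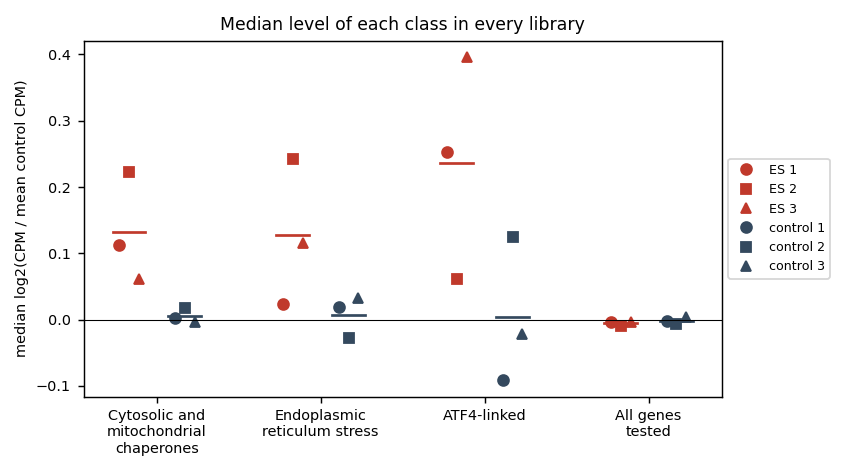
Median over each class of log2(CPM / mean control CPM), with a pseudocount of 0.5 CPM, for every library (ES left, control right), with a line at the mean of 3 libraries. ES 2 is highest for both chaperone classes at 0.22 and 0.24 and below control 2 for the ATF4-linked class, while all genes tested stay between −0.0089 and 0.0044.

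The wider pathways were read from lists of further genes, of which 126 of 128 were matched and 125 tested. Among other cytosolic and mitochondrial chaperones, 2 of 49 were higher at an unadjusted edgeR p under 0.05 and 0 lower, a share of 4.08% against 4.01% of all genes, with a median log2 fold change of 0.07. The 2 were Ahsa1, the activator of the HSP90 ATPase, at 80.1, 86.9 and 71.0 CPM in ES, against 52.8, 65.5 and 69.7 CPM in control (0.34 ± 0.11, SE; edgeR adjusted p = 0.32), and Dnaja4, a J-domain protein (0.29 ± 0.10; edgeR adjusted p = 0.345). Next in p were Fkbp5 and Fkbp4, immunophilins that bind HSP90, at 0.29 ± 0.13 and 0.18 ± 0.08.

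Other ER folding and degradation genes had 4 of 42 higher (9.52%) and 1 lower (2.38%, against 5.94% of all genes) at an unadjusted p under 0.05, with a median of 0.07 and 36 above 0. Creld2, an ER stress-induced folding factor, had 69.8, 82.4 and 78.0 CPM in ES, against 55.8, 62.8 and 65.8 CPM in control (0.32 ± 0.09, SE; edgeR adjusted p = 0.234). Hyou1, the ER nucleotide exchange factor, Manf, a secreted ER stress protein, and Ero1a, the oxidase that recharges disulfide isomerases, had log2 fold changes of 0.29 ± 0.10, 0.24 ± 0.09 and 0.26 ± 0.10, without overlap. The gene lower was Creb3l2, a relative of Atf6 in collagen-secreting cells, at −0.18 ± 0.07, named after its values were seen.

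Other integrated stress response genes had 7 of 34 on the higher side (20.6%, against 4.01% of all genes) and 0 on the lower (against 5.94%) at that level, with a median of 0.06 and 24 above 0. Gdf15, a secreted stress cytokine, had 9.78, 7.25 and 7.16 CPM in ES, against 3.51, 4.92 and 5.01 CPM in control (0.85 ± 0.22, SE; edgeR adjusted p = 0.186). Ddit4, an inhibitor of mTORC1, had 43.9, 76.2 and 47.7 CPM in ES, against 29.1, 28.4 and 35.3 CPM in control (0.86 ± 0.23; edgeR adjusted p = 0.276). Neither overlapped between the groups, and both were 1.8-fold higher, more than any member. Mthfd2, a mitochondrial folate enzyme, and the transcription factor Atf5 had log2 fold changes of 0.29 ± 0.10 and 0.27 ± 0.10. The others at that level, named after their values were seen, were Cebpb (0.52 ± 0.18), Mars1 (0.22 ± 0.09) and Slc7a11 (0.66 ± 0.29). Of these 7 genes, Gdf15 alone kept an unadjusted p under 0.05 in every alternative. The lowest log2 fold change in any alternative was 0.57 for Ddit4, 0.28 for Cebpb and 0.245 for Slc7a11. edgeR called none of the 125 over all genes, and DESeq2 called Ddit4 and Cebpb.

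**Figure D5:**
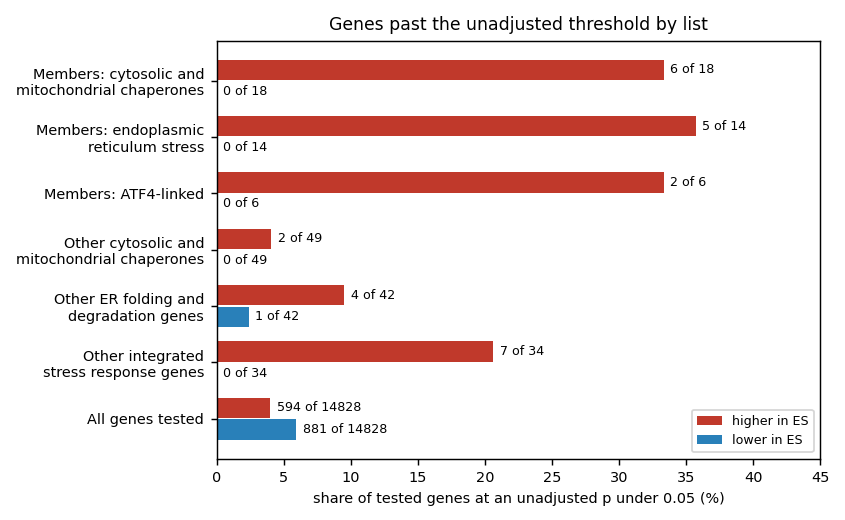
Share of tested genes at an unadjusted edgeR p under 0.05, in percent, by list (red higher in ES, blue lower in ES; labels give the counts). The 3 member classes lie at 33.3% to 35.7% higher, the other lists at 4.08% to 20.6% and all genes at 4.01%. The members and lists were chosen with earlier results of these data known, so the shares describe them and test nothing.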

How the data were processed

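Whole-number read counts per gene for 6 libraries and FPKM values for the same libraries were deposited by the authors, with a table of FPKM group means used only as a check. Each deposited FPKM equalled the count divided by the table's gene length and by 1 constant per library. Per the labels' protocols, RNA came from TRIzol extraction and libraries from NEBNext Ultra reagents. No aligner, counter or strand setting is named (not given in the sources used here). Build rn7 stands in the submitters' processing notes, but the tables hold 6890 clone names starting AABR07 and genes on chromosome 1 that reach position 282724300, which resemble an earlier rat build, so the build of the tables' coordinates is not settled.

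Counts were tested with edgeR 4.0.16 in R 4.3.3 (quasi-likelihood test, robust dispersions, filterByExpr, TMM, two-sided, Benjamini-Hochberg adjustment over 14828 genes, threshold 0.05). The 830 unnamed loci, holding 0.723% to 0.840% of each library's counts, stayed in the fit. Standard errors are the absolute log2 fold change over the square root of F. CPM use TMM-scaled library sizes, and errors on means are SD. Scripts were tested on simulated data. Within a group, pairs of libraries differed far beyond sampling noise (chi-square per gene 11.1 to 19.1). Each library counted as 1 replicate, although this spread could be technical and does not show that the animals differed. Alternatives were DESeq2 1.42.0, limma-voom 3.58.1, RLE size factors, no filter, non-robust dispersions, a replicate block and leaving out each library.

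The members and lists were chosen with earlier results of these data known. Values in every library are given for members with an unadjusted p under 0.05, the most abundant of each class, sensors and factors, and members whose coefficient of variation in a group lay above that of 90% of tested genes. From each further list the 4 genes of lowest p are named. Older symbols came from a RefSeq table (GRCr8).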

Additional observations from a re-analysis of the deposited data

How the results depend on the processing

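The medians of the 3 classes stayed above 0 in all 12 alternatives and moved by less than the spread between libraries. Over all genes, calls higher and lower numbered 99 and 209 with DESeq2, 2 and 0 with limma-voom, 35 and 97 with no low-count filter, 2 and 0 with non-robust dispersions and 2 and 9 with the replicate block, against 5 and 20. Leaving out 1 library gave 2 to 25 calls higher and 0 to 127 lower. Members called higher were 1 with DESeq2 (Dnajb1) and 0 in the other 11 alternatives, and members called lower were 0 in all 12. Other chaperone and stress genes called higher were 2 with DESeq2. Members higher at an unadjusted p under 0.05 numbered 5 to 13 when 1 library was left out, with the fewest without ES 2. Of all genes, 3.16% to 5.02% were higher at that level in these fits. Members lower numbered 0 to 2, the 2 being Atf6 and Hsp90aa1 without control 3.

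Same-numbered libraries did not deviate together (correlations of −0.12, −0.13 and −0.04), and those of different numbers had −0.04 to 0.16. Correlations of deviations within groups of 3 cannot settle whether the samples were paired. With the replicate block 9 of the 13 members kept an unadjusted p under 0.05. Of all genes, 2.81% were higher at that level with the block, against 4.01% without it.

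Of the 38 members, 30 kept their direction in every alternative. Hspa4 (−0.0015) turned to 0.0030 with DESeq2, 0.0013 with RLE size factors and 0.0053 with no filter. When 1 library was left out, log2 fold changes ranged from −0.035 to 0.035 for Hspa4, −0.041 to 0.15 for Dnajb4, −0.031 to 0.11 for Hsf1, −0.038 to 0.11 for Hspe1, −0.13 to 0.066 for Ern1, −0.012 to 0.10 for Xbp1, −0.0026 to 0.15 for Dnajb9, −0.30 to 0.030 for Asns. In the analysis of all 6 libraries these 8 lay between −0.10 and 0.07. Depth limits Hspa1b, Chac1 and Trib3, at 56 to 133 counts a library.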
